A study of Homo sapiens with 18 samples.

Results

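The 10 genes described here are transcriptional outputs of the RAS-ERK pathway that were listed by name with earlier results of these data known, and no threshold on a measured value entered the rule: the Sprouty genes SPRY1, SPRY2 and SPRY4, the SPRED genes SPRED1 and SPRED2, the PEA3 transcription factor genes ETV1, ETV4 and ETV5, and PHLDA1 and CCND1. They were matched by symbol, and all 10 were found among the 55765 distinct symbols of the deposited counts and passed the filter on low counts in both series. Growth factor receptors pass their signal through RAS, RAF and MEK to the kinase ERK, which drives transcription of these genes. Sprouty and SPRED proteins sit at the membrane and damp the signal between the receptor and RAF, so that they form a feedback loop, and SPRED proteins do so by bringing the RAS inactivator neurofibromin to the membrane. ETV1, ETV4 and ETV5 are ETS family activators downstream of the pathway, PHLDA1 is a pleckstrin homology-like protein induced by growth factors, and CCND1 encodes cyclin D1, the partner of CDK4 and CDK6 in G1.

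RNA was sequenced from OVCAR3, a long-established cell line of high-grade serous ovarian carcinoma, in 18 libraries that formed 2 series of 9 with 3 groups of 3 each. In the first series cells received non-specific human IgA, non-specific human IgG or nothing, and in the second they received IgA against the neurotrophin BDNF, IgA against the tetraspanin TSPAN7 or nothing. All cells were grown in RPMI with little serum, antibodies were given at 0.5 µg/ml for 24 h by the labels and methods (another description of the same data in the study gives 8 h), and all groups are cultures of this 1 line. The question was how tumour cells respond to IgA with and without a known antigen, and groups were compared only within a series. The study states in general that replicates were biological or independent experiments, and it counts those of the first series as experiments. For the second series it does not say whether they were separate cultures, so p-values there measure the spread between these samples, which may be technical.

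Library totals ran from 27920733 to 42371474 counts (first series) and from 39254350 to 47381836 (second). The common dispersion, which measures how far replicates differ beyond counting error, was 0.0307 for the first series but 0.00303 for the second, so small changes were measured more precisely in the second. IgA replicate 3 stood apart, with 19.1% of its counts from the mitochondrial genome against 5.75% to 8.32% in the other libraries of its series, and the fold changes with non-specific IgA are also given without it. The defining markers of the line (PAX8, WT1, MUC16, EPCAM, KRT8 and KRT18) were detected in every library. MUC16 was the most abundant of them in the second series. Their sum in CPM (scaled to library totals) was lower with TSPAN7 IgA (3424 to 3588) than with BDNF IgA (4116 to 5120.3) or in untreated cells (4116 to 4492). Without MUC16 the sums were 1916 to 2095 with TSPAN7 IgA, 2088 to 2471 with BDNF IgA and 2095 to 2239.6 in untreated cells, and these ranges overlapped. In the first series the full sums overlapped (3454 to 4969 with IgA, 4007 to 5519 in the other libraries), and without MUC16 they were lower with IgA (2118 to 2680.0) than with IgG (2821 to 3418) or in untreated cells (2955 to 3317). The part of these differences in the results was not tested. Markers of leukocytes and antibody-producing cells summed to at most 73 counts in any library, and IGHA1 was at 0 in all 18. In such bulk samples, fewer cells expressing a gene and less RNA per cell cannot be told apart.

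The sequences upstream of 4 members are shown because SPRY1, ETV1 and PHLDA1 fell between the antigen-specific antibodies, and SPRY4 rose most with non-specific IgA. They are the 250 bases before a transcription start in RefSeq (GRCh38.p14), written 5′ to 3′ on the strand of the gene. Entries were used for 7 of the 10 members, with 16 starts among them, and none for ETV4, ETV5 and CCND1. Capitals mark matches on either strand to CCGGAA, the core bound by ETS factors, TGANTCA, the AP-1 motif, or TGAATGAA or TGAATGGA, the motif of the ETV repressor CIC. The SPRY1 window is at chr4:123398136-123398385 on the plus strand, the ETV1 window at chr7:13991426-13991675, the PHLDA1 window at chr12:76031777-76032026 and the SPRY4 window at chr5:142324248-142324497, these 3 on the minus strand.
SPRY1, start 2: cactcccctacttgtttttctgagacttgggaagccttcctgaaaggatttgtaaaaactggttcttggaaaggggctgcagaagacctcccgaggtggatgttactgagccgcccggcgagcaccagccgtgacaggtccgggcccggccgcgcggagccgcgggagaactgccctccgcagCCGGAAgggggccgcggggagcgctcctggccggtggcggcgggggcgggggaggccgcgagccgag
ETV1, start 2: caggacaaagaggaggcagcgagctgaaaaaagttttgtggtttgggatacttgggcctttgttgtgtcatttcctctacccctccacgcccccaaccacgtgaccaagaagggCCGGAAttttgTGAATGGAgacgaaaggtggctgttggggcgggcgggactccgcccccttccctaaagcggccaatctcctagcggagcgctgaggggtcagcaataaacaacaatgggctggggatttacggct
PHLDA1: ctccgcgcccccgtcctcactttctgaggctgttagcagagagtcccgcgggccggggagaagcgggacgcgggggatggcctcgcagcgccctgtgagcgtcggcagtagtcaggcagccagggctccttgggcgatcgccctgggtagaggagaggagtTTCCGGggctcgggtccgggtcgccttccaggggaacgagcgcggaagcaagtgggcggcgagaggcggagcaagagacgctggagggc
SPRY4: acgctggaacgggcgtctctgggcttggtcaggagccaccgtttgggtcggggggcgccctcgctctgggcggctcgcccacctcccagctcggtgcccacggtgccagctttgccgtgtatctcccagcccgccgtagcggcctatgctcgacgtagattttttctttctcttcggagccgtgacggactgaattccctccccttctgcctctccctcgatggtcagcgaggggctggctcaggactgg

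In SPRY1 the ETS core lay 67 bases before the start. In ETV1 it lay 136 bases before the start, with the CIC motif at 125 bases and no shared base, and in PHLDA1 it lay on the opposite strand 89 bases before the start. The SPRY4 window held none of these letters, and nor did the other SPRY1 window. Of the 6 ETV1 windows 3 held the ETS core, and the other 3 held none of the motifs. Over windows of 300 bases, which add the 50 after the start, the ETS core was found in 6 of the 16 member windows. These came from 4 members (SPRY1, SPRY2, ETV1 and PHLDA1), and of all 35116 promoter windows 17.2% held the core. The AP-1 motif was found in 1 window, of SPRED2, against 7.71% of all windows, and the CIC motif in the ETV1 window shown, against 2.63%. The windows of a gene can overlap, and the core 141 bases before ETV1 start 1 is the same site as that 137 bases before start 4. A match is a description of letters, not of a bound site.

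Per kilobase of exon, CCND1 was the most abundant member in untreated cells of both series. In the second series its level was 3585 ± 249.6 normalised counts per kilobase (SD, n = 3), where normalised counts are raw counts adjusted to a library of average effective size in that series. PHLDA1 followed at 2597 ± 67.1, then SPRED2 at 724 ± 9.61, ETV4 at 583 ± 18.2, ETV5 at 329 ± 18.7, SPRED1 at 299 ± 2.20, SPRY1 at 258 ± 14.0, SPRY4 at 202 ± 0.888, SPRY2 at 169 ± 3.24 and ETV1 at 68.8 ± 6.67, and no neighbours in this order overlapped. The order in this series thus put the cyclin and PHLDA1 far above the inhibitors, and ETV1 last. Lengths were unions of the exons of all transcripts, 9.592 kb for ETV1 and 3.213 kb for SPRY2. Before division by length ETV1 was not last, with 660 normalised counts in untreated cells against 543 for SPRY2. In the first series the levels per kilobase were 2408 ± 197 for CCND1, 571 ± 34.6 for SPRED2, 482 ± 52.0 for ETV4, 458 ± 29.9 for PHLDA1, 272 ± 14.8 for SPRY1, 157 ± 13.7 for ETV5, 150.1 ± 7.23 for SPRED1, 102 ± 18.2 for SPRY2, 65.8 ± 7.23 for SPRY4 and 10.6 ± 1.63 for ETV1. There PHLDA1 lay below the inhibitor SPRED2, and ETV1 was again last. ETV4 overlapped with PHLDA1 and ETV5 with SPRED1. The series were scaled separately, so their levels stand side by side without a comparison.

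BDNF IgA was compared with untreated cells to ask what IgA against a secreted antigen changes. PHLDA1 was the only member called, and it was higher. Its normalised counts were 16951, 16556 and 18374 with BDNF IgA and 15253, 15025 and 15797 in untreated cells. All 3 treated libraries lay above all 3 untreated ones, by a log2 fold change of 0.17 (SE 0.05, adjusted p 0.0212 by edgeR), which is a 1.13-fold difference. This call rested on single libraries: the adjusted p (edgeR) was 0.148 without BDNF IgA replicate 3, 0.0818 without untreated replicate 1 and 0.104 without untreated replicate 2. Of the members, 1 of 10 was called higher and 0 lower. Of all 18732 genes tested, 4.49% were called higher and 3.18% lower, 7.67% in either direction, so the members were called about as often as genes at large.

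The other 9 members also had fitted values above 0 with BDNF IgA, from 0.04 to 0.16 on the log2 scale, and the median over the 10 was 0.12 against 0.00 over all genes. The groups did not overlap for 5 members, against 24.8% of all genes, and 5 had an unadjusted p under 0.05, all with values above 0, against 22.1%. These members share the same 6 libraries and are not independent of each other. ETV4, an ETS activator (chromosome 17, 41605212 to 41656988, minus strand, GRCh37), had 2327, 2175.5 and 2367 normalised counts with BDNF IgA and 2075, 2096 and 1976 in untreated cells. The groups were apart, and the log2 fold change of 0.16 (SE 0.06, adjusted p 0.0955 by edgeR) missed the threshold but passed it without BDNF IgA replicate 2 (0.19, adjusted p 0.0251). Over all alternatives the adjusted p of ETV4 (edgeR or DESeq2) ran from 0.0251 to 0.297. SPRED1, an inhibitor on chromosome 15 (38545037 to 38649450, plus strand), had 2434, 2508 and 2672 against 2305, 2303 and 2333 (0.13, 95% interval 0.03 to 0.24, edgeR adjusted p 0.121). SPRY4 had 1492, 1433 and 1414 against 1321, 1321 and 1331 (0.13, interval 0.01 to 0.24, edgeR adjusted p 0.186), and SPRED2 had 4328, 4153 and 4236 against 3998, 4032 and 3928 (0.09, interval 0.00 to 0.18, edgeR adjusted p 0.223). For each of these 3 the treated libraries lay above the untreated ones without a call, and a p that misses the threshold does not show that the levels were equal.

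SPRY1, SPRY2, ETV1, ETV5 and CCND1 overlapped between BDNF IgA and untreated cells. The log2 fold changes and their 95% intervals were 0.05 (-0.10 to 0.19) for SPRY1, 0.08 (-0.12 to 0.27) for SPRY2, 0.14 (-0.07 to 0.35) for ETV1, 0.04 (-0.09 to 0.16) for ETV5 and 0.11 (-0.01 to 0.23) for CCND1. The widest of these intervals, that of ETV1, allowed at most a log2 change of 0.35 in either direction. The value of ETV5 was -0.01 without BDNF IgA replicate 3 or untreated replicate 3.

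**Figure D1:**
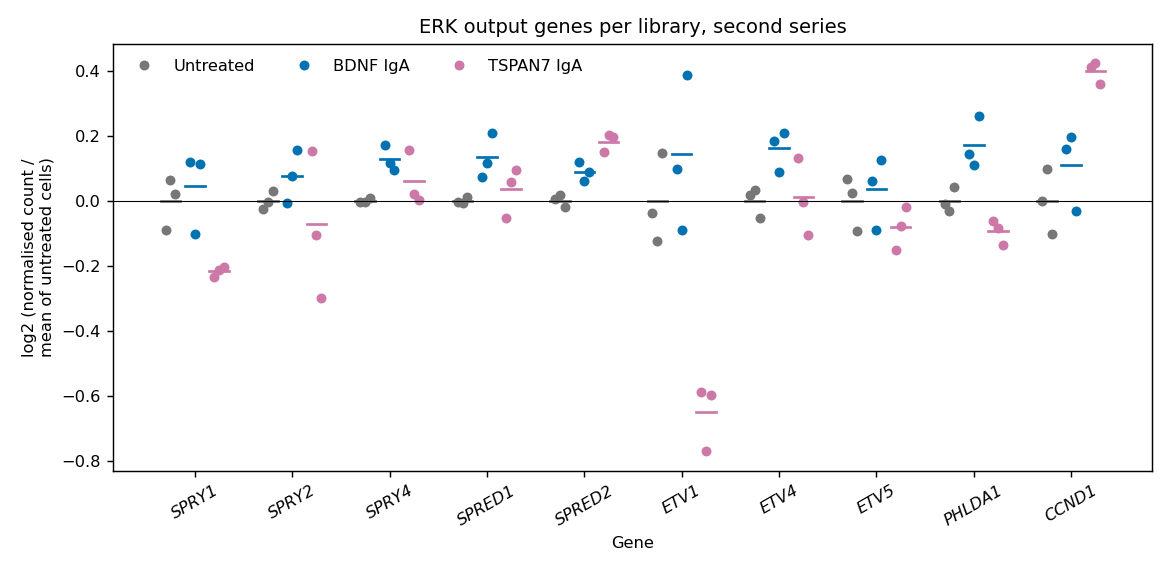
Normalised counts of the 10 members in each of the 9 libraries of the second series, as log2 of the ratio to the mean of the untreated cells, with genes on the horizontal axis. Points are libraries and short bars are group means; the 3 TSPAN7 IgA libraries sit below all others for ETV1 (387 to 438 normalised counts) and above all others for CCND1 (21894 to 22871).

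TSPAN7 IgA, directed at a membrane protein, was compared with the same untreated libraries. The members moved in both directions: CCND1 and SPRED2 rose, and ETV1 fell. Of the 10, 2 were called higher and 1 lower, and of all genes tested 4.46% were called higher and 4.08% lower, 8.54% in either direction. ETV1 (chromosome 7, 13930854 to 14031050, minus strand, GRCh37) had 438, 387 and 436 normalised counts with TSPAN7 IgA and 643, 606 and 731 in untreated cells. The highest treated library was below the lowest untreated one, and ETV1 fell by 0.65 on the log2 scale (SE 0.11, adjusted p 0.000341 by edgeR), to 0.637 of the untreated level. Over all alternatives its log2 fold change stayed between -0.71 and -0.57 and its adjusted p (edgeR or DESeq2) at or under 0.00585. This was the largest change of a member in either comparison with untreated cells in the second series.

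CCND1 (chromosome 11, 69455924 to 69469242, plus strand) had 22694, 22871 and 21894 normalised counts with TSPAN7 IgA and 17046, 18271 and 15894 in untreated cells. Every treated library was above every untreated one, and the log2 fold change was 0.40 (SE 0.06, adjusted p 7.00e-05 by edgeR), a 1.32-fold rise. SPRED2 (chromosome 2, 65537985 to 65659771, minus strand) had 4418, 4579.7 and 4561 normalised counts with TSPAN7 IgA. These were above the untreated values given with BDNF IgA, by a log2 fold change of 0.18 (SE 0.04, adjusted p 0.00885 by edgeR). The SPRED2 call was lost without TSPAN7 IgA replicate 2 (0.17, adjusted p 0.0580).

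SPRY1 (chromosome 4, 124317950 to 124324915, plus strand) had 869.8, 883 and 888 normalised counts with TSPAN7 IgA and 962, 1070.2 and 1038 in untreated cells. The groups did not overlap, and the log2 fold change of -0.22 (SE 0.07) missed the threshold by a small margin (edgeR adjusted p 0.0534). It passed with DESeq2 (adjusted p 0.0496), with no filter on low counts (edgeR, 0.0471) and with a fit of just the 6 libraries compared (edgeR, 0.0167), so that 2 members were then called lower. Over all alternatives the adjusted p of SPRY1 (edgeR or DESeq2) ran from 0.0167 to 0.211. PHLDA1 had 14708, 14494 and 13957 normalised counts, also below all untreated libraries, without a call (log2 fold change -0.09, 95% interval -0.19 to -0.00, edgeR adjusted p 0.225). In all, the groups did not overlap for 5 members, against 28.4% of all genes, and 5 had an unadjusted p under 0.05, against 22.1%.

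The remaining 5 members overlapped between TSPAN7 IgA and untreated cells. SPRY2 had 603, 504 and 441 normalised counts with TSPAN7 IgA against 533, 541 and 554 (log2 fold change -0.07, 95% interval -0.27 to 0.12). The treated libraries spread on both sides of the untreated ones, and the value was 0.03 without TSPAN7 IgA replicate 3. ETV4 had 2245, 2043 and 1905 (0.01, interval -0.11 to 0.13), and ETV5 had 1712, 1802 and 1877 against 1991, 1933 and 1782 (-0.08, interval -0.21 to 0.05). ETV1 thus fell while no change of the related ETV4 and ETV5 passed the test, and the difference between these genes was not tested. SPRY4 had 1475, 1343 and 1327 (0.06, interval -0.06 to 0.18) and SPRED1 2229.9, 2407 and 2471 (0.03, interval -0.07 to 0.14). The median over the 10 members was -0.03, against -0.00 over all genes.

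The direct comparison of the antigen-specific antibodies asked whether these genes differed between them. Each antigen had 1 antibody group, so antigen and antibody preparation cannot be told apart. This series also had no group given non-specific IgA. With TSPAN7 IgA, CCND1 was higher than with BDNF IgA, and ETV1, PHLDA1 and SPRY1 were lower. So 1 of 10 members was called higher and 3 lower, where of all genes tested 3.42% were called higher, 4.5% lower and 7.92% in either direction. The groups did not overlap for 5 members, against 23.6% of all genes, and 6 had an unadjusted p under 0.05, against 22.5%. These comparisons share their libraries with those against untreated cells and are not further evidence for them.

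ETV1 had 705, 619 and 862 normalised counts with BDNF IgA, all well above the 3 TSPAN7 IgA libraries. It fell by 0.79 on the log2 scale between the antibodies (SE 0.10, adjusted p 8.81e-05 by edgeR), to 0.577 of the level with BDNF IgA. PHLDA1 fell by 0.27 (SE 0.05, adjusted p 0.000859 by edgeR). Its 3 libraries with BDNF IgA lay above, and its 3 with TSPAN7 IgA below, all untreated libraries. CCND1 had 19037, 19550.5 and 16700.4 normalised counts with BDNF IgA, below the 3 TSPAN7 IgA libraries (log2 fold change 0.29, SE 0.06, adjusted p 0.00280 by edgeR). The calls of ETV1, PHLDA1 and CCND1 were kept in every alternative, with adjusted p (edgeR or DESeq2) at or under 0.00217, 0.0112 and 0.0275.

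SPRY1 had 1110.5, 954 and 1106 normalised counts with BDNF IgA, all above the 3 libraries with TSPAN7 IgA. It fell by 0.26 (SE 0.07, adjusted p 0.0211 by edgeR), and this call was lost when 1 of 5 libraries was left out. The adjusted p (edgeR) was then 0.120 without BDNF IgA replicate 1, 0.123 without its replicate 3, and 0.0640, 0.0874 and 0.0605 without TSPAN7 IgA replicates 1, 2 and 3. Without BDNF IgA replicate 2 there were 5 members lower, with ETV4 (-0.18, edgeR adjusted p 0.0309) and ETV5 (-0.17, 0.0399) added, and ETV4 was also called without TSPAN7 IgA replicate 1 (-0.21, 0.0393). Over all alternatives the adjusted p (edgeR or DESeq2) ran up to 0.446 for ETV4 and 0.695 for ETV5. With all libraries, the log2 fold changes and 95% intervals were -0.15 (-0.27 to -0.03) for ETV4, -0.12 (-0.24 to 0.01) for ETV5, -0.15 (-0.34 to 0.05) for SPRY2, -0.07 (-0.18 to 0.05) for SPRY4, -0.10 (-0.21 to 0.01) for SPRED1 and 0.09 (0.00 to 0.18) for SPRED2. Only SPRED2 and CCND1 had values above 0, and the median of the 10 was -0.13, against -0.00 over all genes.

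**Figure D2:**
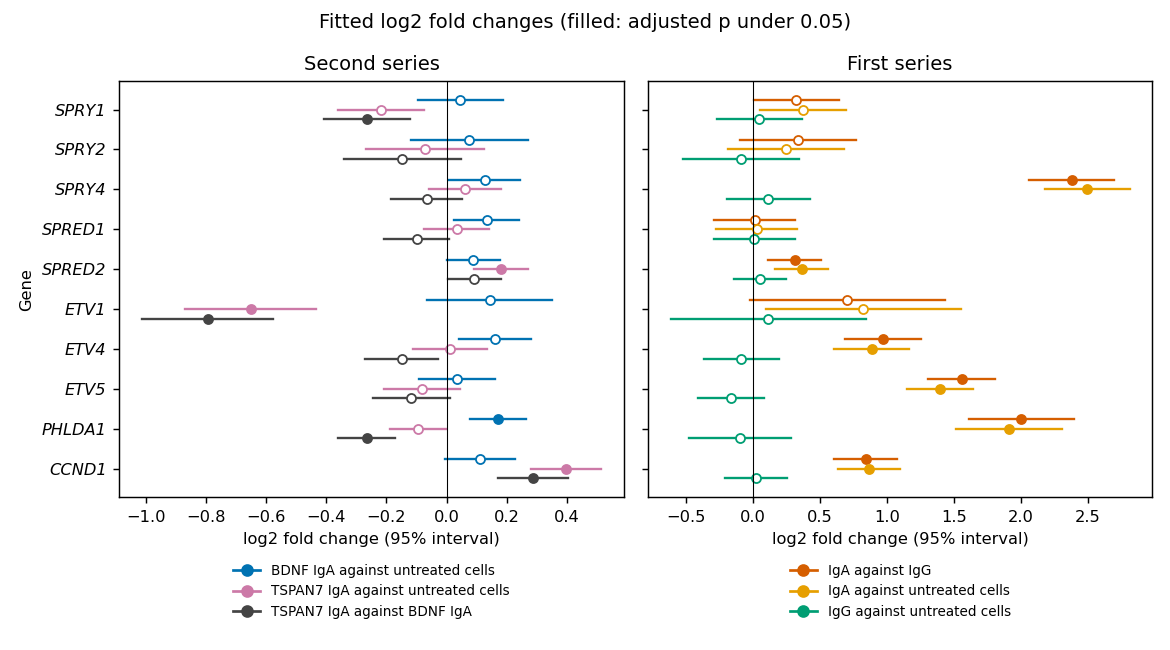
Fitted log2 fold changes of the 10 members on the horizontal axis with 95% intervals as lines, for the 3 comparisons of the second series (left) and of the first (right), on separate scales; filled points had an adjusted p under 0.05. ETV1 was at -0.65 against untreated cells and -0.79 against BDNF IgA in the second series, and SPRY4 was at 2.49 against untreated cells with non-specific IgA in the first.

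In the first series, non-specific IgA was compared with untreated cells to ask what IgA without a known antigen changes. SPRY4, PHLDA1, ETV5, ETV4, CCND1 and SPRED2 rose, and no member was called lower. Thus 6 of 10 members were called higher and 0 lower (edgeR, and likewise 6 and 0 with DESeq2), against 12.9% higher, 12.1% lower and 25% in either direction of all 18012 genes tested. All 10 had values above 0, and 8 had an unadjusted p under 0.05, against 37.6% of all genes. The groups did not overlap for 6 members, against 39.9%. The median log2 fold change over the 10 was 0.84, against -0.01 over all genes.

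SPRY4, a Sprouty inhibitor (chromosome 5, 141689992 to 141706020, minus strand, GRCh37), had 2047, 2620.2 and 2627 normalised counts with IgA and 401, 407 and 486 in untreated cells. The lowest IgA library was far above the highest untreated one, and SPRY4 rose by 2.49 on the log2 scale (SE 0.15, adjusted p 3.38e-07 by edgeR), which is 5.63-fold. PHLDA1 (chromosome 12, 76419227 to 76425556, minus strand) had 9105, 7629.6 and 13869 against 2629, 2590.4 and 2914. Its IgA libraries varied widely, replicate 3 being highest, and the log2 fold change was 1.91 (SE 0.18, adjusted p 2.32e-05 by edgeR), or 1.62 without that library. ETV5 (chromosome 3, 185764103 to 185828107, minus strand) had 2176, 2487 and 2518 against 924, 823 and 979 (1.40, SE 0.11, adjusted p 6.95e-06 by edgeR). ETV4 had 3443, 3423 and 2518 against 1520.0, 1674 and 1884 (0.89, SE 0.13, adjusted p 0.000470 by edgeR). CCND1 had 22119, 20991 and 19572 against 11125, 12529 and 10746 (0.87, SE 0.11, adjusted p 0.000147 by edgeR). For ETV5, ETV4 and CCND1 too, the IgA libraries lay above all untreated ones.

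SPRED2 had 3972, 3889 and 4293 normalised counts with IgA against 3127, 2964.5 and 3344. The groups were apart, but the rise was small (log2 fold change 0.37, SE 0.09, adjusted p 0.0113 by edgeR) and was not called when scaled by library size alone (0.15, adjusted p 0.355). That scaling moved the median of all genes to -0.22, and changes are given relative to that of the genes at large. The SPRED2 call was also lost without untreated replicate 1 or 2 (edgeR adjusted p 0.0513 and 0.0635). The other 5 called members kept their calls in every alternative.

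SPRY1 with IgA had 1629, 1518 and 1044 normalised counts, of which replicate 3 fell among the untreated values of 1031, 1144 and 1060.2. Its log2 fold change was 0.38 (SE 0.15, adjusted p 0.0804 by edgeR), and without IgA replicate 3 it was called (0.54, adjusted p 0.00230), so that 7 members were then higher. When scaled by library size alone SPRY1 was at 0.19 (edgeR adjusted p 0.503). ETV1 had 207, 96.9 and 240.1 against 96.6, 119 and 89.4, with replicate 2 among the untreated libraries. Its value of 0.82 (SE 0.34, adjusted p 0.0908 by edgeR) was called without IgA replicate 2 (1.13, adjusted p 0.0126) and with no filter on low counts (0.81, adjusted p 0.0234). Over all alternatives the adjusted p of ETV1 (edgeR or DESeq2) ran from 0.0126 to 0.237. SPRY2 (chromosome 13, 80910111 to 80915261, minus strand) had 352, 501 and 309.6 against 368, 354 and 260.2 (0.25, 95% interval -0.18 to 0.68), and SPRED1 had 1077, 1429 and 1049 against 1179, 1101 and 1210.1 (0.03, interval -0.28 to 0.33). These 2 overlapped with untreated cells, and the value of SPRED1 was -0.17 when scaled by library size alone. Without IgA replicate 3 the values of the called members were 2.43 for SPRY4, 1.36 for ETV5, 1.02 for ETV4, 0.91 for CCND1 and 0.32 for SPRED2, each called.

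**Figure D3:**
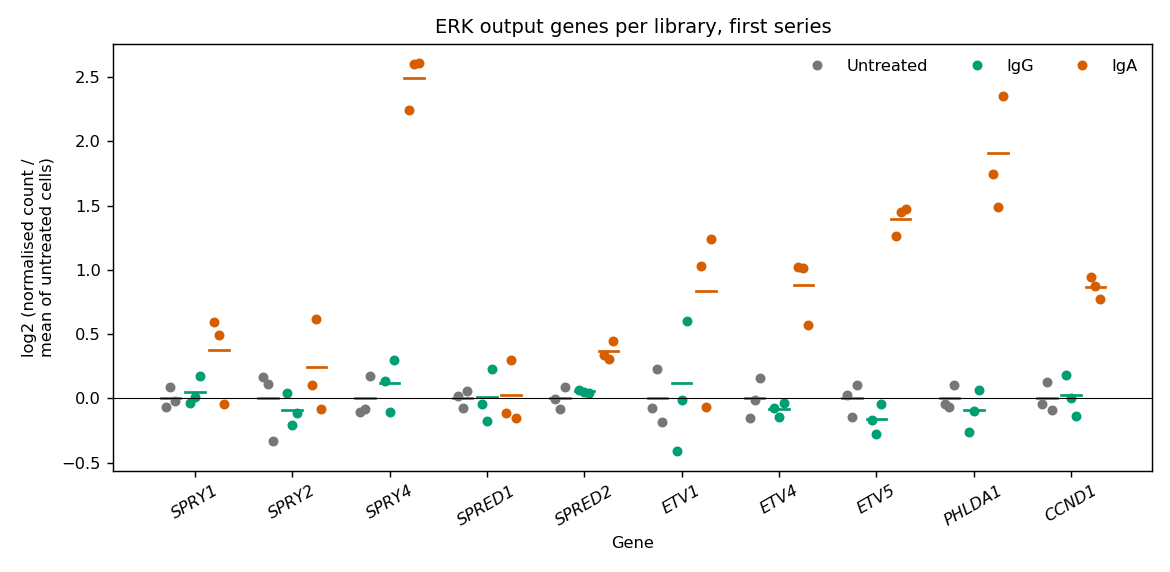
Normalised counts of the 10 members in each of the 9 libraries of the first series, as log2 of the ratio to the mean of the untreated cells, with genes on the horizontal axis. Points are libraries and short bars are group means; the 3 IgA libraries of SPRY4 (2047 to 2627 normalised counts) lie far above the IgG and untreated ones (401 to 529), and the range of the IgG points overlaps that of the untreated ones for every gene.

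IgA was also compared with IgG, the other antibody class. Each class had 1 group, so class and antibody preparation cannot be told apart. The same 6 members were called higher and 0 lower, against 12.6% and 11.6% of all genes, 24.2% in either direction. The groups did not overlap for 6 members, against 40.3%, and 7 had an unadjusted p under 0.05, against 37.5%. The IgG libraries had 473, 401 and 529 normalised counts of SPRY4, 2257, 2530.2 and 2840.5 of PHLDA1, and 809, 749 and 882 of ETV5. They had 1607, 1529.6 and 1652 of ETV4, 13003, 11509 and 10446 of CCND1, and 3296, 3249 and 3245 of SPRED2. In each case they were below all 3 IgA libraries. SPRED2 was the least secure of the 6 (log2 fold change 0.31, edgeR adjusted p 0.0249). It lost its call when scaled by library size alone (0.07, adjusted p 0.682), with no filter on low counts (0.0852), with only the 6 libraries compared (0.0592) and without any 1 of the IgG libraries (0.0722 to 0.0959). SPRY1 (0.33, 95% interval 0.01 to 0.64), SPRY2 (0.34, -0.10 to 0.77), SPRED1 (0.02, -0.29 to 0.32) and ETV1 (0.71, -0.02 to 1.43) were not called. Without IgA replicate 3 SPRY1 was (0.49, edgeR adjusted p 0.00451), and without IgA replicate 2 ETV1 was (1.01, edgeR adjusted p 0.0215). Over all alternatives the adjusted p (edgeR or DESeq2) ran up to 0.709 for SPRY1 and 0.375 for ETV1. Values of the called members without IgA replicate 3 were 2.32 for SPRY4, 1.72 for PHLDA1, 1.52 for ETV5, 1.10 for ETV4, 0.89 for CCND1 and 0.27 for SPRED2.

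No member was called between IgG and untreated cells. By edgeR and by DESeq2, 0 of 10 were called higher or lower, and 0 had an unadjusted p under 0.05. Over all genes 0% were called, 0.494% had an unadjusted p under 0.05 and 6.75% had groups that did not overlap, which no member did. The log2 fold changes ran from -0.16 for ETV5 (95% interval -0.40 to 0.08) to 0.12 for ETV1 (-0.61 to 0.85), with a median of 0.02. For ETV1, the member with the fewest counts, the interval thus allows a sizeable change, while for SPRED2 it ran from -0.14 to 0.25. This fit shares its spread with the variable IgA libraries, and comparisons with IgA share their untreated or IgG libraries with it.

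Among SPRY1, SPRY2 and SPRY4 the make-up of the transcripts differed with non-specific IgA. Sprouty shares here are of the sum of these genes, without SPRY3. SPRY4 made up 44.3% ± 7.73 (SD, n = 3) of the Sprouty counts per kilobase with IgA (37.5%, 42.6% and, in replicate 3, 52.7%), 15.8% ± 1.24 with IgG and from 13.5% to 17.5% in untreated cells. The lowest IgA library, at 37.5%, was above the highest of the others, at 17.5%. In the second series the SPRY4 share was 33.2% ± 1.43 with BDNF IgA, 35.5% ± 0.444 with TSPAN7 IgA and 32.1% ± 0.802 in untreated cells. Within the PEA3 genes, ETV1 made up 4.65% ± 0.332 with TSPAN7 IgA, 7.11% ± 0.795 with BDNF IgA and 7.03% ± 0.894 in untreated cells, and the TSPAN7 IgA libraries (4.32% to 4.98%) lay below all 6 others. ETV5 made up 31.6% ± 4.95 with non-specific IgA (27.4%, 30.5% and, highest, replicate 3), 23.2% ± 0.675 with IgG and 24.3% ± 2.05 in untreated cells. These shares are descriptions without a test.

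**Figure D4:**
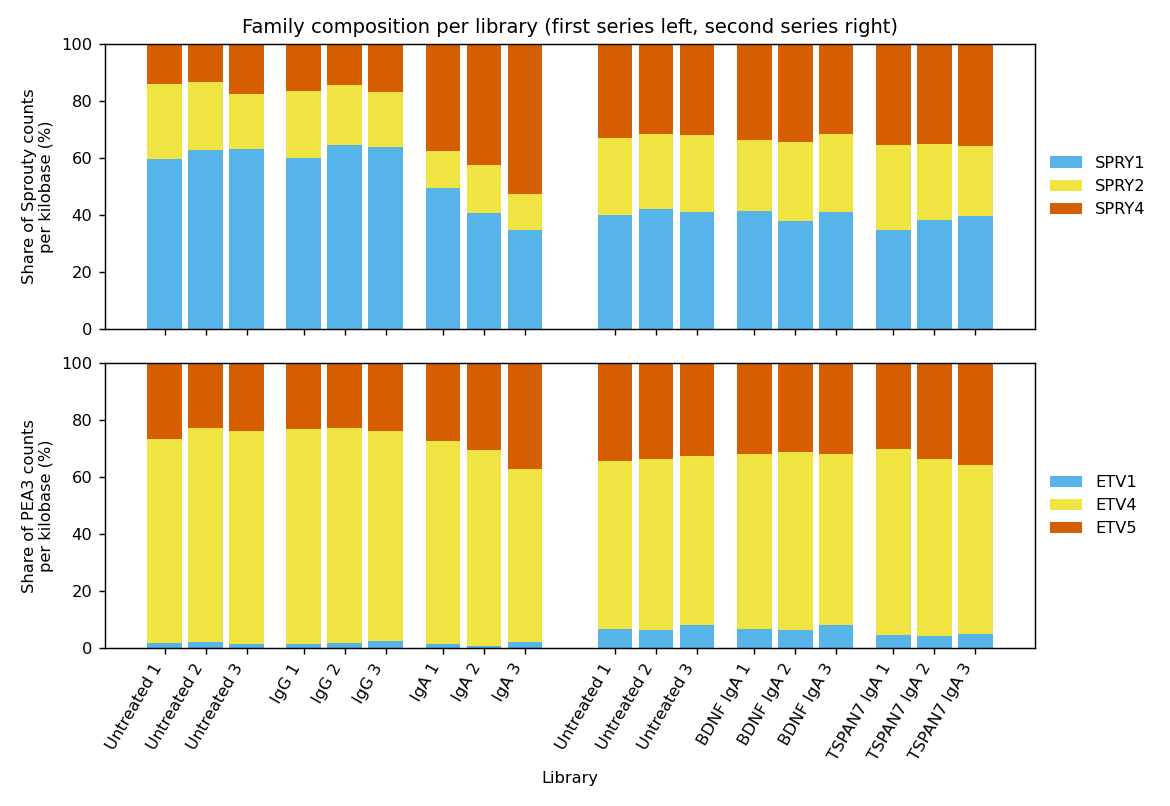
Share of SPRY1, SPRY2 and SPRY4 (upper panel) and of ETV1, ETV4 and ETV5 (lower panel) in their summed normalised counts per kilobase, in percent on the vertical axis. SPRY3 is not in the sum. Bars are libraries of the first series (left) and the second (right). SPRY4 takes 37.5% to 52.7% in the IgA libraries and at most 17.5% in the IgG and untreated libraries of the first series, and ETV1 takes 4.32% to 4.98% with TSPAN7 IgA.

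Related genes of the pathway were grouped in lists chosen by their known roles. SPRY3 and SPRED3, the remaining members of their families, were not called in the second series. SPRED3 had 117 ± 9.67 normalised counts with BDNF IgA and 84.8 ± 5.55 in untreated cells (0.47 on the log2 scale, adjusted p 0.0918 by edgeR), while it was at 0.00 with TSPAN7 IgA, and SPRY3 was at 0.17 and -0.08. PHLDA2, a relative of PHLDA1, fell with both antibodies, by 0.24 (edgeR adjusted p 0.00579) with BDNF IgA and by 0.26 (0.00243) with TSPAN7 IgA, so that with BDNF IgA it and PHLDA1 were called in opposite directions. With non-specific IgA against untreated cells PHLDA2 rose by 1.08 (edgeR adjusted p 0.000421), while SPRY3 (-0.78, adjusted p 0.0552) and SPRED3 (0.78, adjusted p 0.0919) were not called. Against IgG, SPRY3 fell by 0.81 (edgeR adjusted p 0.0480). Without IgA replicate 3, PHLDA2 was at 0.99 against untreated cells and kept its call, and SPRY3 lost its call against IgG (-0.60, edgeR adjusted p 0.0906).

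Of 10 other ERK outputs (DUSP4, DUSP5, DUSP6, EPHA2, EPHA4, FOSL1, FOS, EGR1, IER3 and MYC), 3 were called higher and 0 lower with BDNF IgA, where 5 were higher and 2 lower at an unadjusted p under 0.05, and DESeq2 called 4 higher and 0 lower. Of all genes 4.49% were called higher and 3.18% lower, and 22.1% had an unadjusted p under 0.05. FOS, a subunit of AP-1, rose by 0.25 and the receptor kinase gene EPHA2 by 0.19. With TSPAN7 IgA 5 were higher and 1 lower, against 4.46% and 4.08% of all genes. There the ERK phosphatase gene DUSP5 rose by 0.59 and FOS by 0.42, while EPHA4 fell by 0.36 (edgeR adjusted p 0.00306). With TSPAN7 IgA relative to BDNF IgA 3 were higher, FOSL1 by 0.58 and DUSP5 by 0.43 among them, and 0 lower (edgeR, with 1 at an unadjusted p under 0.05 and 0 by DESeq2), against 3.42% and 4.5% of all genes. With non-specific IgA 5 were higher and 2 lower against untreated cells, against 12.9% and 12.1% of all genes, with FOSL1 at 3.53, DUSP5 at 3.42 and the immediate-early gene EGR1 at -2.07. Without IgA replicate 3 these values were 3.19, 3.43 and -1.70, with 6 higher and 3 lower.

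Among partners of Sprouty and SPRED proteins, the caveolin gene CAV1 fell by 0.20 with BDNF IgA (edgeR adjusted p 0.0154). With TSPAN7 IgA CAV1 rose by 0.18 and the ubiquitin ligase gene CBL by 0.19, and CAV1 differed by 0.38 between the antibodies, being higher with TSPAN7 IgA (edgeR adjusted p 7.16e-05). With non-specific IgA against untreated cells CAV1 rose by 1.44 and CBL by 0.51, or by 1.23 and 0.43 without IgA replicate 3, each called.

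Regulators of the PEA3 factors (CIC, ATXN1, ATXN1L, COP1, DET1, TRIB1 and TRIB2) were examined beside ETV1, ETV4 and ETV5. ATXN1, a partner of the repressor CIC, rose by 0.27 with BDNF IgA (edgeR adjusted p 0.00545) and was lower with TSPAN7 IgA than in cells given BDNF IgA (-0.34 on the log2 scale, adjusted p 0.00118 by edgeR). CIC itself fell by 0.17 with TSPAN7 IgA against untreated cells (edgeR adjusted p 0.0443). These were the only ones of the 7 called in the second series, 1 in each comparison. Of all genes 7.67% were called with BDNF IgA, 8.54% with TSPAN7 IgA and 7.92% between them. With non-specific IgA against untreated cells 2 of 7 were higher and 1 lower (12.9% and 12.1% of all genes). TRIB2 was at 0.66, ATXN1 at 0.62 and DET1 at -0.93. Without IgA replicate 3 these values were 0.56, 0.42 and -1.08, each called. Among 8 cyclin D and G1 genes (CCND2, CCND3, CDK4, CDK6, CDKN1A, CDKN1B, RB1 and E2F1), of which 7 had enough counts to be tested, 3 rose with TSPAN7 IgA, as did CCND1, and 0 fell, where 4.46% of all genes were called higher. CDK6 rose by 0.33 (edgeR adjusted p 0.000533) and CCND3 by 0.25 (0.0305). CDK6 and CCND3 were also higher than with BDNF IgA, by 0.25 and 0.23, while with BDNF IgA against untreated cells 0 of 7 were called by edgeR or DESeq2 and 1 had an unadjusted p under 0.05 (all genes 7.67% and 22.1%). With non-specific IgA the cyclin kinase inhibitor gene CDKN1A rose by 2.10 and CDK6 by 0.50 against untreated cells, 2 of the 3 called (12.9% of all genes were higher). Without IgA replicate 3 they were at 1.92 and 0.44, and 4 were called. In IgG against untreated cells 0 of the genes named in these lists were called by edgeR or DESeq2, and 0 had an unadjusted p under 0.05.

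Genes with the most similar pattern were found for SPRY4, ETV5, PHLDA1 and CCND1 by the root mean square difference of the 4 log2 fold changes against untreated cells (IgA, IgG, BDNF IgA and TSPAN7 IgA), among 13346 genes. These 4 values come from 18 libraries and share untreated cells in pairs, and likeness is a description only. For SPRY4 the closest were FGF5 (0.05), HSPA5 (0.07) and SDC4 (0.09). For ETV5 they were RN7SK (0.07), MT-RNR1 (0.09) and MANF (0.09), for PHLDA1 PLAU (0.12), ZEB1 (0.12) and EMP3 (0.12), and for CCND1 COL4A4 (0.05), LINC00669 (0.06) and ALPK2 (0.06). PHLDA1 thus had the least similar neighbours of the 4. MT-RNR1 is a mitochondrial transcript, and its log2 fold change with IgA of 1.51 was 0.35 without IgA replicate 3, the library with 19.1% mitochondrial counts. EMP3 was at 1.78 with and 1.40 without that library. Of the neighbours of CCND1, COL4A4 was at 0.87 with and 0.53 without it, ALPK2 at 0.86 and 0.63, and LINC00669 at 0.92 and 0.86. CCND1 itself was at 0.87 and 0.91. The differences used for likeness included that library.

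The exons of some members overlap other genes, and no strand setting was given for the counting. In the GRCh37 annotation 68 bases of ETV4 lie opposite DHX8, which had 2672 to 6477 counts per library, and reads there cannot be told apart. ETV5 shares 164 bases with DGKG on the same strand, which had at most 9 counts. PHLDA1 overlaps PHLDA1-AS1 by 553 bases and CCND1 overlaps LTO1 by 497, both opposite, and these neighbours were not matched to a symbol here.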

How the data were processed

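Sample titles gave the group and replicate of each library. The deposited values are raw counts per gene, which the authors made from 75-base paired-end reads (trimmed with cutadapt 1.8.1, aligned to GRCh37 with STAR 2.5.3a, counted with featureCounts 1.5.3), with no normalization and no stated strand setting; the submitters' processing notes also list bcl2fastq 2.20.0.422 and HTSeq 0.6.1. The authors tested them with DESeq2.

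The second table had 57820 entries, of which 2055 exact duplicates (1.99% to 2.46% of the counts of a library) were dropped. No replicate was a copy of another in its group (chi-square per degree of freedom 3.91 to 232). Reads carried no molecular identifiers, so precision rests on the variation among replicates.

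All 9 libraries of a series were fitted together with edgeR 4.0.16 (R 4.3.3) by its two-sided quasi-likelihood F test after TMM scaling and filterByExpr, with Benjamini-Hochberg adjustment over all genes tested. Calls needed an adjusted p under 0.05. SE is |log2 fold change| over the root of F. Exonic lengths are unions of GENCODE exons lifted to GRCh37.

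All 10 members were named whatever their values. From each list at most the 2 largest changes in each direction among called genes were named, and SPRY3 and SPRED3 always; the 3 nearest genes by likeness had a mean of at least 50 normalised counts in each series. Members and lists were chosen with earlier results of these data known. Alternatives were DESeq2 1.42.0, RLE and library size scaling, no filter on low counts, the 6 libraries compared alone, no mitochondrial genes, a replicate block and leaving out each library in turn. List genes without IgA replicate 3 and marker sums in CPM were added after seeing the data. PECAM1, a stroma marker, was not used here, and the others (COL1A1 and DCN) summed to 524 to 1071 counts per library. Genes of the core pathway and some partners are not reported here.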

Additional observations from a re-analysis of the deposited data

How the results depend on the processing

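Of the called members, ETV1, CCND1 and PHLDA1 in TSPAN7 IgA against BDNF IgA, ETV1 and CCND1 in TSPAN7 IgA against untreated cells, and SPRY4, PHLDA1, ETV5, ETV4 and CCND1 with non-specific IgA kept direction and call in every alternative. With BDNF IgA against untreated cells, leaving out 1 library gave 0 to 2 members higher (main value 1), with PHLDA1 lost or ETV4 gained. With TSPAN7 IgA against untreated cells it gave 1 to 2 higher (2), and 2 lower (1) were found with no filter, with DESeq2 and with the 6 libraries alone, where SPRY1 was added. TSPAN7 IgA against BDNF IgA gave 2 to 5 lower (3).

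Values of members that were not called changed sign in 19 cases, on leaving out 1 library or, for SPRED1, also with library size scaling. SPRED1 ran from -0.15 to 0.13 for IgA against IgG and from -0.13 to 0.11 against untreated cells, and was at -0.20 and -0.17 with library size scaling. In IgG against untreated cells the ranges were -0.014 to 0.095 for SPRY1, -0.23 to 0.0053 for SPRY2, -0.11 to 0.099 for SPRED1, -0.20 to 0.33 for ETV1 and -0.062 to 0.097 for CCND1. ETV5 ran from -0.013 to 0.091 with BDNF IgA, and with TSPAN7 IgA ETV4 ran from -0.054 to 0.067 and SPRY2 from -0.20 to 0.031. The cause was not tested.

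Counts over all genes moved by over 1.5 times in these settings. Library size scaling gave 873 higher and 3631 lower for IgA against IgG (2265 and 2095) and 1001 and 3296 against untreated cells (2316 and 2187), with medians of -0.25 and -0.22. The 6 libraries alone gave 1326 lower for IgA against IgG, 1168 lower for TSPAN7 IgA (764) and 427 higher between the specific antibodies (641), and no filter gave 2 lower for IgG (0). Leaving out 1 library gave as few as 1339 higher and 1227 lower for IgA against IgG, 1365 and 1236 against untreated cells, and 429 and 328 with TSPAN7 IgA; with BDNF IgA it gave 429 to 1505 higher and 293 to 1293 lower, and between the specific antibodies 196 to 1554 and 286 to 1722.

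Same-numbered libraries deviated from their group means with correlations of -0.07 to 0.25 (first series) and -0.02 to 0.09 (second). Differently numbered libraries were not compared, so these values cannot decide whether the numbers pair the samples. With the replicate number as a block, member counts were as reported, and over all genes 949 were higher and 706 lower with BDNF IgA, 903 and 856 with TSPAN7 IgA, and 773 and 955 between them. In the first series the spread of the IgA libraries limits what can be seen of SPRY2, SPRED1 and ETV1, and ETV1 had the fewest counts of the members.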
